A study of Mus musculus with 6 samples.

Results

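Axon guidance ligands and receptors made up 69 of the 22535 gene rows measured here by RNA sequencing of mouse melanoma cells. The rows were taken by symbol. They comprise semaphorins of classes 3 to 7, plexins, neuropilins, Slit ligands and Robo receptors, ephrins and Eph receptors, and netrins with the receptors Dcc, Neo1 and Unc5. Of the 69, 19 had no read in any library, 8 had reads but a mean under 1 CPM (reads counted in a gene, scaled to the library's total over genes), and 42 reached a mean of at least 1 CPM over all libraries and were tested among 11063 genes.

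B16-BL6 is a mouse melanoma line derived from B16. Cells carrying a guide RNA against the complex I subunit gene Ndufs4 (genotype sgNDUFS4, 3 libraries) were set against the same line carrying a control guide (genotype sgControl, 3 libraries), to ask which transcripts change in sgNDUFS4 cells, which had been seen to be immunogenic. The labels give the same medium for both groups and name no other treatment. Whether a genotype stands for a single clone is not stated, nor whether replicates are separate cultures, so each p-value reflects only how far these libraries vary, and that variation may be technical.

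These families steer growing axons, and they also act in many non-neuronal cells, where they set adhesion, repulsion and movement through the actin cytoskeleton. Semaphorins bind plexins, the secreted class 3 members mostly through neuropilin co-receptors. Slit proteins bind Robo receptors, ephrins bind Eph receptor tyrosine kinases on neighbouring cells, and netrins bind Dcc, neogenin and Unc5 receptors. Melanocytes descend from the neural crest, a migrating population in which Eph, semaphorin and Robo signals are known to guide movement.

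Depth ranged from 20090607 to 25947374 reads in genes per library, so that 3 reads correspond to 0.116 to 0.149 CPM, a floor for counting error alone since no molecular identifiers are named. The targeted gene Ndufs4 was at 14.99, 15.98 and 16.8 CPM in sgNDUFS4 libraries and at 54.3, 55.0 and 52.4 CPM in sgControl libraries (log2 fold change -1.73). All 7 melanocyte lineage markers were detected, with a summed level of 14508 to 15533 CPM in sgNDUFS4 and 15409 to 15927 CPM in sgControl. This sum hides single markers that differed in both directions. Mitf and Pmel had higher means in sgNDUFS4, and Sox10, Dct, Tyr, Tyrp1 and Mlana had lower ones. Tyr averaged 3.10 CPM in sgNDUFS4 and 32.3 CPM in sgControl, and Pmel averaged 5507 and 4358 CPM. All 5 endothelial markers were at 0 in every library. Of the fibroblast markers Dcn and Lum were at 0 and the list summed to 41.4 to 46.1 CPM in sgNDUFS4 and 41.8 to 44.1 CPM in sgControl. Of the leukocyte markers Cd3e was at 0 in every library, and Adgre1 was at 0.308 to 2.25 CPM in sgNDUFS4 and 0.761 to 1.62 CPM in sgControl. Of 5 epithelial markers Krt18 was at 0 and 2 reached 1 CPM in a library, with sums of 0.424 to 1.255 CPM in sgNDUFS4 and 1.21 to 6.27 CPM in sgControl. Of 5 neuron markers Rbfox3 and Snap25 were at 0. The list, mostly Tubb3, summed to 91.6 to 98.3 CPM in sgNDUFS4 and 126.6 to 138.6 CPM in sgControl. Map2 went the other way, at 8.11 to 11.2 CPM in sgNDUFS4 and 6.89 to 7.54 CPM in sgControl. Of the markers of Schwann cells, glia that share a neural crest origin with melanocytes, Gap43 was at 0, and Mbp was at 709.8 to 899.8 CPM in sgNDUFS4 and 681.7 to 826.04 CPM in sgControl. The part of these lists in the results was not tested.

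Of the 42 axon guidance genes tested, 16 rose in sgNDUFS4, 11 fell and 15 did not pass the limma test at an adjusted p of 0.05. That is 38.1% higher and 26.2% lower, against 31.8% and 20.3% of all genes tested, of which 52.0% were called in either direction. In bulk RNA, fewer cells with a transcript and less transcript per cell cannot be told apart. No overlap between groups was seen for 26 of the 42, or 61.9%, against 57.2% of all genes tested. Changes of at least 2-fold were called in 10 of the 42 (23.8%), against 3.85% of all genes tested. Of these, 7 were lower and 3 higher, where 2.15% and 1.70% of all genes were. These 2 shares were not compared at matched levels. All 10 had a mean of at most 9.82 CPM, and 31 of the 42 reached a mean of 5 CPM, against 9655 of 11063 genes tested. When centred on neighbouring genes, as described below, Efnb1, Efna4 and Plxna3 of the 10 were at -0.67, 0.73 and -0.24. The median log2 fold change was 0.08 for the 42 genes and 0.06 for all genes, and the median size without sign was 0.43 and 0.21. Among the 22 receptors tested, 11 rose and 8 fell, and among the 20 ligands 5 rose and 3 fell. Over all genes 61.1% of calls were higher on the deposited scale. With trimmed-mean (TMM) scaling, which matches the bulk of genes between libraries, 2756 genes were higher and 2850 lower, or 49.2% higher, and of the axon guidance genes 13 were higher and 12 lower, against 24.9% and 25.8% of all genes tested. The plot of fold changes by family shows the largest changes among the Eph receptors and Robo2.

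**Figure D1:**
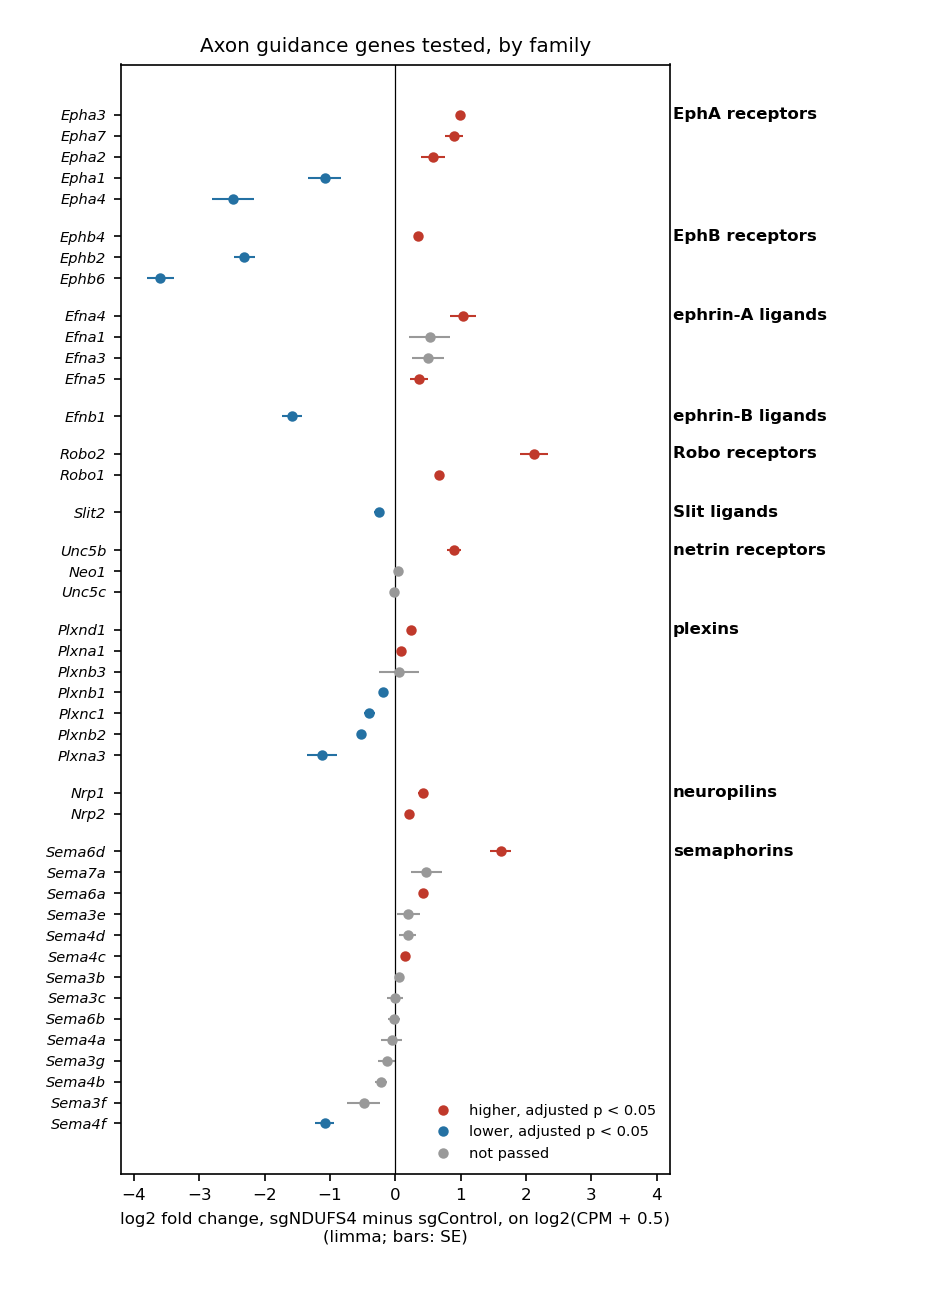
Log2 fold change of each tested axon guidance gene, sgNDUFS4 minus sgControl, on the log2(CPM + 0.5) scale, with its standard error (3 libraries a group) and grouped by family. The largest falls are Ephb6, Epha4 and Ephb2 and the largest rises Robo2 and Sema6d, whereas most semaphorins lie close to 0.

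Eph receptors, the tyrosine kinase receptors of ephrins, changed in both directions in sgNDUFS4. All 8 that could be tested passed, where 52.0% of all genes tested did. Ephb6, Ephb2, Epha4 and Epha1 fell, and Epha3, Epha7, Epha2 and Ephb4 rose. Epha5, Epha6, Epha8, Epha10 and Ephb1 had no read in any library, and Ephb3 was at 0 to 0.232 CPM in sgNDUFS4 and 0 to 0.507 CPM in sgControl.

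The 250 bases before the RefSeq start of 6 Eph receptor genes are given here, to set the 3 that fell most (Ephb6, Epha4 and Ephb2) beside the 3 that rose most (Epha3, Epha7 and Epha2). The windows, from RefSeq on GRCm38.p6, are chr6:41605261-41605510 (plus strand), chr1:77515089-77515338 (minus strand), chr4:136836013-136836262 (minus strand), chr16:63864176-63864425 (minus strand), chr4:28812881-28813130 (plus strand) and chr4:141300971-141301220 (plus strand). Each ends at most 29 bases from the start of its gene in GENCODE M21. Capitals mark matches, on either strand, to the E-box CACGTG and the M-box core CATGTG (reverse complement CACATG). The M-box core is an E-box form that the melanocyte factor Mitf binds. Capitals also mark the GC box GGGCGG (reverse complement CCGCCC) and the TATA box TATAAA (reverse complement TTTATA).
Ephb6: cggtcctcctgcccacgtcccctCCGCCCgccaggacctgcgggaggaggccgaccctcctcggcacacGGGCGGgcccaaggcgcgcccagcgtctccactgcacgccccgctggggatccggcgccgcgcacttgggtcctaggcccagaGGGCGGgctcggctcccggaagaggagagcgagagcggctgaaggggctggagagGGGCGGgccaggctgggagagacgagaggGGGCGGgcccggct
Epha4: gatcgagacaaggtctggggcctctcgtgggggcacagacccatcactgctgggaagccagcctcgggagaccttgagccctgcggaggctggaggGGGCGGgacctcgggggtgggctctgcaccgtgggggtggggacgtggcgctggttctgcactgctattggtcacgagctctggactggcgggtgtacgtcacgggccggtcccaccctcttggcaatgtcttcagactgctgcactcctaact
Ephb2: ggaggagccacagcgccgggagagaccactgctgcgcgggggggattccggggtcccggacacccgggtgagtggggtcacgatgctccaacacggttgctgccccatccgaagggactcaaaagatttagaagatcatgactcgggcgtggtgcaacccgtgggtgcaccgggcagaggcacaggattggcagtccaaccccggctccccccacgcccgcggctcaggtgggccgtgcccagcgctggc
Epha3: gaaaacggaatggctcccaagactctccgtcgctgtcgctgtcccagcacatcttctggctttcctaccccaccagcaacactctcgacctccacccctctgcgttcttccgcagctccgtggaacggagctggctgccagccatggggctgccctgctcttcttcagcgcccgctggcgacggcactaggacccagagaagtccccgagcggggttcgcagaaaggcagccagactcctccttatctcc
Epha7: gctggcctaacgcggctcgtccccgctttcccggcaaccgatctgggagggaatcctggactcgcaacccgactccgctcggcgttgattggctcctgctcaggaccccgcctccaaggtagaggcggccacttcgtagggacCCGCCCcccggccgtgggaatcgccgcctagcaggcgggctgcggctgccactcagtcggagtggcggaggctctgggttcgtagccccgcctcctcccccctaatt
Epha2: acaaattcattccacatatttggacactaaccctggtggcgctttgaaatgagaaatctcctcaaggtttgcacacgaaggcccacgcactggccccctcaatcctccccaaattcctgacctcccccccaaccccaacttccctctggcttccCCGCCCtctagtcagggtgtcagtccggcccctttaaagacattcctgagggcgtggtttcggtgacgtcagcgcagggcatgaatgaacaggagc
The windows of the receptors that fell held 27, 14 and 20 CpG sites (Ephb6, Epha4 and Ephb2), and those of the receptors that rose held 16, 25 and 9 (Epha3, Epha7 and Epha2). The median over 32817 RefSeq windows was 6. A GC box was present 5 times in the Ephb6 window, once each in the Epha4, Epha7 and Epha2 windows, and not in the Ephb2 and Epha3 windows, and 32.7% of all windows hold at least 1. No E-box, M-box core or TATA box lay in any of the 6 windows, and 6.02%, 12.3% and 12.4% of all windows hold them. None of these motifs separated the receptors that fell from those that rose.

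Ephb6 (ENSMUSG00000029869.7, chromosome 6, 41605482 to 41620509, plus strand, GRCm38) encodes a receptor whose kinase domain is inactive. It was at 0.968, 0.335 and 0.732 CPM in sgNDUFS4 libraries and at 12.3, 12.7 and 15.2 CPM in sgControl libraries. Every sgNDUFS4 library was far below every sgControl library. The mean was 0.678 ± 0.320 CPM in sgNDUFS4 and 13.4 ± 1.58 CPM in sgControl (SD, n = 3 each), or -3.59 on the log2(CPM + 0.5) scale (SE 0.211, limma adjusted p = 1.8e-13). At levels this low the size depends on the pseudocount: it was -4.21 with a pseudocount of 0.1 CPM and -3.12 with one of 1 CPM, and -4.34 with edgeR and -4.35 with DESeq2 on recovered reads.

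Ephb2 (chromosome 4, 136647539 to 136835988), a receptor of B-type ephrins, was at 2.36, 2.63 and 4.09 CPM in sgNDUFS4 libraries and at 16.2, 16.4 and 17.2 CPM in sgControl libraries. The groups were well apart, and sgNDUFS4 replicate 3 was the highest of its group. The log2 fold change was -2.31 (SE 0.161, limma adjusted p = 6.3e-12).

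Epha4 (chromosome 1, 77367185 to 77515088), a receptor that binds ephrins of both classes, was at 0.155, 0.962 and 0 CPM in sgNDUFS4 libraries, which corresponds to 4, 23 and 0 reads. It was at 4.38, 3.68 and 3.59 CPM in sgControl libraries. The sgNDUFS4 libraries differed among themselves more than the sgControl libraries did, and all of them lay below every sgControl library. The log2 fold change was -2.48 (SE 0.318, limma adjusted p = 3.6e-07) and lay between -2.93 and -2.16 with any library left out. It was -3.72 with a pseudocount of 0.1 CPM and -1.89 with one of 1 CPM, and -3.47 with edgeR and -3.44 with DESeq2 on recovered reads.

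Epha1 (chromosome 6, 42358487 to 42373268) was at 1.20, 0.669 and 1.35 CPM in sgNDUFS4 libraries and at 2.44, 2.62 and 3.28 CPM in sgControl libraries. The groups did not overlap and the log2 fold change was -1.08 (limma adjusted p = 0.00089). Of its exon length 6.01% is shared with Zyx on the opposite strand, which was at 309 to 317 CPM in sgNDUFS4 and 312 to 318 CPM in sgControl. Reads from that stretch cannot be assigned without strand.

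Epha3 (ENSMUSG00000052504.7, chromosome 16, 63543534 to 63864175, minus strand), a receptor of A-type ephrins, was at 253.3, 249.1 and 290.2 CPM in sgNDUFS4 libraries and at 131.4, 122.4 and 144.5 CPM in sgControl libraries. The lowest sgNDUFS4 library was well above the highest sgControl library. The mean was 264.2 ± 22.6 CPM in sgNDUFS4 and 132.8 ± 11.1 CPM in sgControl (SD, n = 3 each), which is 1.99-fold (log2 fold change 0.99, SE 0.0532, limma adjusted p = 3.3e-14).

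Epha7 was at 11.8, 12.1 and 10.5 CPM in sgNDUFS4 libraries and at 5.82, 5.88 and 6.02 CPM in sgControl libraries (log2 fold change 0.90, limma adjusted p = 3e-06). Ephb4, the receptor of the B-type ligand Efnb2, was at 70.9, 64.6 and 75.7 CPM in sgNDUFS4 libraries and at 51.4, 56.8 and 56.8 CPM in sgControl libraries (log2 fold change 0.35, limma adjusted p = 3.6e-05). In both genes the groups were apart. Epha2 was at 10.1, 9.37 and 7.71 CPM in sgNDUFS4 libraries and at 8.06, 6.34 and 3.91 CPM in sgControl libraries, so its groups overlapped (log2 fold change 0.58, limma adjusted p = 0.0099). The call for Epha2 was lost without sgNDUFS4 replicate 1 (0.50, limma adjusted p = 0.067) and without sgControl replicate 3 (0.31, limma adjusted p = 0.10).

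**Figure D2:**
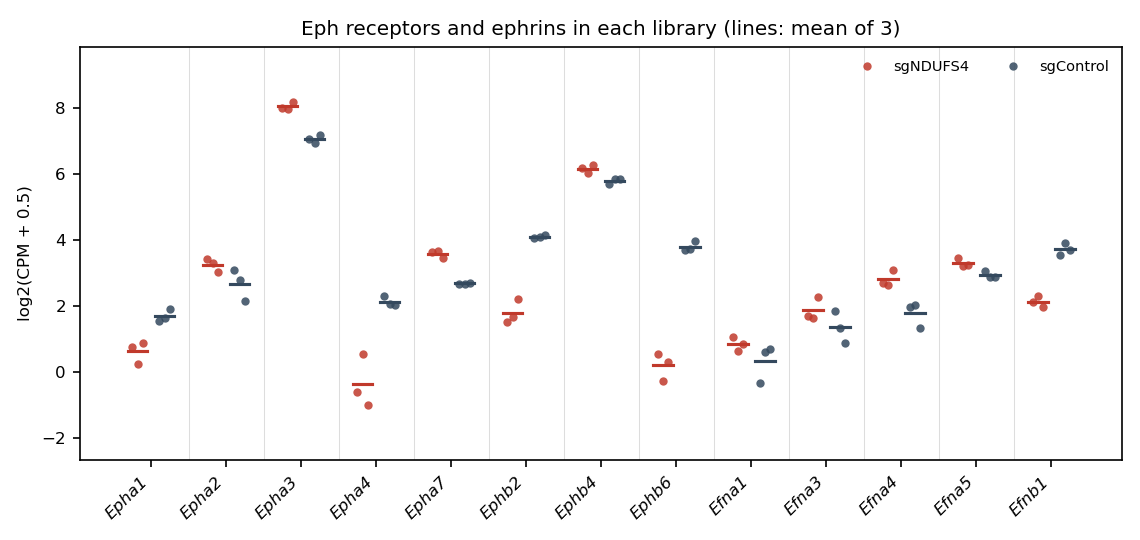
Level of each tested Eph receptor and ephrin gene in every library, as log2(CPM + 0.5), with sgNDUFS4 in red and sgControl in dark blue; lines are means of 3 libraries. Epha4, Ephb2, Ephb6 and Efnb1 lie lower in all 3 sgNDUFS4 libraries and Epha3 and Epha7 higher, while Efna1, Efna3 and Epha2 overlap.

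Compared per kilobase of merged exon, the makeup of the receptor set differed between the genotypes. Merged exon lengths come from GENCODE M21 and take in every annotated isoform, so levels of different genes are approximate. Epha3 was the most abundant EphA receptor in both genotypes, at 30.4 ± 2.60 CPM per kb in sgNDUFS4 and 15.3 ± 1.27 CPM per kb in sgControl (SD, n = 3 each). It took 89.8 ± 1.56% of the EphA level per kb in sgNDUFS4 and 83.1 ± 2.47% in sgControl. By mean the next EphA receptor was Epha2 in both, at 1.94 ± 0.263 and 1.31 ± 0.447 CPM per kb in sgNDUFS4 and sgControl. In sgControl replicate 3, however, Epha2 and Epha1 were level, at 4.32% and 4.31% of the EphA level per kb. Among EphB receptors, Ephb4 took 97.0%, 97.9% and 96.9% of the level per kb in sgNDUFS4 libraries and 70.7%, 72.04% and 69.4% in sgControl libraries. Ephb6 took 1.14 ± 0.502% in sgNDUFS4 and 21.2 ± 1.55% in sgControl, and Ephb2 took 1.53 ± 0.372% in sgNDUFS4 and 7.87 ± 0.293% in sgControl (SD, n = 3 each). The groups did not overlap in any of these 3 EphB shares, and the exact two-sided permutation test gave p = 0.1 for each, the smallest that 3 against 3 libraries allow. In sgControl, Ephb6 was therefore the second EphB receptor by level per kb, and in sgNDUFS4 it was at 0.180 ± 0.0849 CPM per kb beside 0.240 ± 0.0734 for Ephb2, a pair that did not differ beyond its spread.

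**Figure D3:**
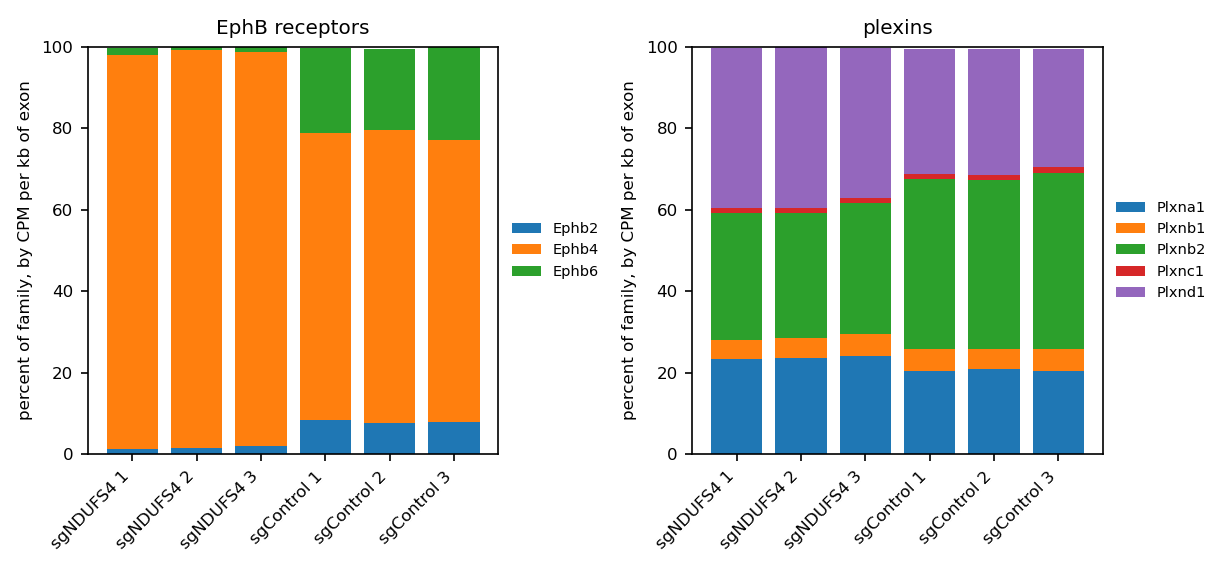
Share of each gene in the summed level of its receptor family in every library, by CPM per kilobase of merged exon; genes under 0.5% in every library are not drawn. Ephb4 fills nearly the whole EphB bar in sgNDUFS4 and about 70.7% of it in sgControl, and among plexins Plxnd1 is larger than Plxnb2 in sgNDUFS4 and smaller in sgControl.

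Ephrins are the membrane-bound ligands of Eph receptors. Of 4 ephrin-A genes tested, which encode lipid-anchored ligands, 2 rose and 0 fell, and the only ephrin-B gene tested, Efnb1, which encodes a transmembrane ligand, fell. Over all genes tested, 31.8% rose and 20.3% fell. Efnb1 (chromosome X, 99136130 to 99148991) was at 3.796, 4.43 and 3.39 CPM in sgNDUFS4 libraries and at 11.05, 14.6 and 12.3 CPM in sgControl libraries. Every sgNDUFS4 library lay below every sgControl library (log2 fold change -1.59, SE 0.152, limma adjusted p = 2.4e-09). Of its 50 nearest tested neighbours on chromosome X, 3 had a fold change above 0 and their median log2 fold change was -0.88. When each gene was centred in every library on these neighbours, Efnb1 was at -0.67 (adjusted p = 0.00077). Among ephrin-B genes, Efnb1 took 81.0 ± 4.57% of the level per kb in sgNDUFS4 and 92.8 ± 2.88% in sgControl (SD, n = 3 each). Efnb3 was at 0.655 to 1.05 CPM in sgNDUFS4 and 0.465 to 1.05 CPM in sgControl, and Efnb2 at 0 to 0.155 CPM in sgNDUFS4 and 0 to 0.254 CPM in sgControl.

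Efna1, Efna3 and Efna4 lie side by side on chromosome 3, with gaps of 32.8 and 10.4 kb between them and no other tested gene in the gaps. Efna4 was at 6.004, 5.73 and 8.05 CPM in sgNDUFS4 libraries and at 3.38, 3.55 and 2.02 CPM in sgControl libraries. Its groups were apart (log2 fold change 1.04, SE 0.198, limma adjusted p = 8.9e-05). Efna3 had a log2 fold change of 0.50 (adjusted p = 0.091) and Efna1 one of 0.52 (adjusted p = 0.16), with groups that overlapped. Antisense transcripts on the opposite strand overlap 10.5% of the exon length of Efna4 and 14.1% of that of Efna3, and reads there cannot be assigned without strand. Of the 50 neighbours of each of these 3 genes, 47 had a fold change above 0, with medians of 0.36. After regional centring Efna4 was at 0.73 (adjusted p = 0.0034), Efna3 at 0.17 and Efna1 at 0.18. Efna5, on chromosome 17, was at 10.4, 8.82 and 8.94 CPM in sgNDUFS4 libraries and at 7.86, 6.85 and 6.78 CPM in sgControl libraries (log2 fold change 0.37, limma adjusted p = 0.026). Its groups did not overlap, but under TMM scaling its adjusted p was 0.059, and the call was also lost without sgNDUFS4 replicate 1 and without sgControl replicate 2 or 3, at 0.29, 0.34 and 0.33. Efna2 had no read.

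Both Robo receptors that could be tested rose, as did 31.8% of all genes tested, and their ligand Slit2 fell, as did 20.3%. Robo2 (ENSMUSG00000052516.19, chromosome 16, 73891839 to 74411825, minus strand) was at 6.86, 7.03 and 7.82 CPM in sgNDUFS4 libraries and at 0.846, 1.14 and 2.02 CPM in sgControl libraries. The lowest sgNDUFS4 library was well above the highest sgControl library, and sgControl replicate 3 was the highest of its group. The mean was 7.24 ± 0.517 CPM in sgNDUFS4 and 1.34 ± 0.611 CPM in sgControl (SD, n = 3 each), which is 5.42-fold (log2 fold change 2.12, SE 0.219, limma adjusted p = 9.9e-09).

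Robo1 (ENSMUSG00000022883.11, chromosome 16, 72308306 to 73046095, plus strand), the more abundant receptor, was at 148.3, 145.8 and 165.8 CPM in sgNDUFS4 libraries and at 97.4, 93.7 and 96.2 CPM in sgControl libraries. The groups were apart (log2 fold change 0.67, SE 0.0480, limma adjusted p = 9e-12). Per kilobase Robo1 remained the main Robo transcript, with 95.6 ± 0.0874% of the family level in sgNDUFS4 and 98.7 ± 0.598% in sgControl (SD, n = 3 each). Robo3 and Robo4 had no read.

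Slit2 (chromosome 5, 47983138 to 48307733), a secreted ligand, was at 30.8, 34.7 and 32.3 CPM in sgNDUFS4 libraries and at 40.8, 36.7 and 39.6 CPM in sgControl libraries. The groups did not overlap and the difference was small (log2 fold change -0.26, SE 0.0723, limma adjusted p = 0.0044). Slit1 and Slit3 had no read, so Slit2 was the only Slit ligand seen at this depth.

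Epha3, Robo1 and Robo2 all lie on chromosome 16. Robo1 and Robo2 are adjacent among tested genes, 845.7 kb apart, and 6 tested genes lie between Epha3 and Robo1. Around the 3 genes the neighbours had median log2 fold changes of 0.26, 0.22 and 0.25 (Epha3, Robo1 and Robo2), and Gbe1, a glycogen branching enzyme gene next to Robo1, fell by 0.21 on the log2 scale. After regional centring Epha3, Robo1 and Robo2 were at 0.74, 0.46 and 1.90, each with an adjusted p of 3.6e-08 or less.

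Netrin ligands were at or near 0, and 3 of their receptors could be tested. Ntn1 and Ntn4 had at most 2 and 4 reads in a library, Ntn5 had none, and Dcc had 2 reads in a single sgNDUFS4 library. Unc5b (chromosome 10, 60762593 to 60831581), a receptor for repulsive netrin signals, was at 26.6, 23.4 and 21.7 CPM in sgNDUFS4 libraries and at 12.5, 13.8 and 11.3 CPM in sgControl libraries. Its groups were apart (log2 fold change 0.90, SE 0.105, limma adjusted p = 7.3e-08), and it was at 0.65 after regional centring. Unc5c averaged 77.7 ± 3.11 CPM in sgNDUFS4 and 79.0 ± 4.70 CPM in sgControl, and Neo1, which also binds repulsive guidance molecules, averaged 118.9 ± 1.94 CPM in sgNDUFS4 and 115.6 ± 3.19 CPM in sgControl (SD, n = 3 each). Neither passed, with log2 fold changes of -0.02 and 0.04 (limma adjusted p = 0.75 and 0.46), and both had overlapping groups. Per kilobase the order in both genotypes began with Neo1. In sgNDUFS4 Unc5c and Unc5b followed at 4.06 ± 0.162 and 3.82 ± 0.399 CPM per kb, which did not differ beyond their spread, whereas in sgControl Unc5c was at 4.13 ± 0.246 and Unc5b at 2.002 ± 0.201 CPM per kb (SD, n = 3 each). Unc5a and Unc5d had no read.

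Plexins are the semaphorin receptors, and 4 of the 7 tested fell while 2 rose. Of all genes tested, 20.3% fell and 31.8% rose. Plxnb2 (chromosome 15, 89155549 to 89180788), a receptor of class 4 semaphorins, was at 559.2, 554.6 and 577.7 CPM in sgNDUFS4 libraries and at 810.3, 800.1 and 826.7 CPM in sgControl libraries. The groups were far apart relative to their spread (log2 fold change -0.53, SE 0.0285, limma adjusted p = 3.8e-14). Plxnd1 (chromosome 6, 115954811 to 115995005), a receptor of Sema3e, was at 664.2, 673.3 and 623.0 CPM in sgNDUFS4 libraries and at 564.8, 565.1 and 529.0 CPM in sgControl libraries. Its groups were also apart (log2 fold change 0.24, SE 0.0333, limma adjusted p = 1.2e-06). The order of these leading plexins differed between genotypes. Per kilobase, Plxnd1 was at 89.5 ± 3.67 and Plxnb2 at 73.0 ± 1.58 CPM per kb in sgNDUFS4, whereas in sgControl Plxnd1 was at 75.7 ± 2.84 and Plxnb2 at 105.2 ± 1.73 CPM per kb (SD, n = 3 each). Plxna1 followed them in both, at 54.8 ± 0.732 CPM per kb in sgNDUFS4 and 51.4 ± 0.787 CPM per kb in sgControl (SD, n = 3 each).

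Plxnc1, the receptor of Sema7a, was at 20.8, 20.6 and 22.4 CPM in sgNDUFS4 libraries and at 27.7, 26.3 and 30.6 CPM in sgControl libraries, with groups apart (log2 fold change -0.40, limma adjusted p = 0.00036). Plxnb1, a receptor of Sema4d, was at 102.7, 109.4 and 120.0 CPM in sgNDUFS4 libraries and at 131.9, 119.9 and 126.2 CPM in sgControl libraries. Its groups overlapped slightly, and it fell by 0.19 on the log2 scale (limma adjusted p = 0.0037). That call was lost without sgNDUFS4 replicate 1 (-0.14, limma adjusted p = 0.052). Plxna1, a partner of class 3 and class 6 semaphorins, rose by 0.09 (limma adjusted p = 0.0095) but was at 0.04 under TMM scaling, where it did not pass (adjusted p = 0.35). Of its exon length 10.7% overlaps an antisense transcript. Plxna3 and Plxnb3 lie on chromosome X among neighbours with median log2 fold changes of -0.83 and -0.87. Plxna3 was at 3.18, 1.30 and 3.28 CPM in sgNDUFS4 libraries and at 6.42, 5.88 and 5.30 CPM in sgControl libraries (log2 fold change -1.12, limma adjusted p = 0.00020), but with regional centring its value was -0.24 (adjusted p = 0.40) and the call was lost. Plxnb3 averaged 1.35 ± 0.735 CPM in sgNDUFS4 and 1.21 ± 0.363 CPM in sgControl (SD, n = 3 each, limma adjusted p = 0.89), while 48 of its 50 neighbours had fold changes below 0. Plxna2 and Plxna4 had no read.

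The neuropilins, co-receptors of class 3 semaphorins, both rose, as did 31.8% of all genes tested. Nrp2 was at 273.1, 268.6 and 261.4 CPM in sgNDUFS4 libraries and at 233.2, 236.8 and 226.5 CPM in sgControl libraries (log2 fold change 0.21, limma adjusted p = 2.5e-05). Nrp1 was at 33.5, 32.9 and 32.1 CPM in sgNDUFS4 libraries and at 24.9, 24.6 and 23.4 CPM in sgControl libraries (log2 fold change 0.43, limma adjusted p = 4.2e-05). In both genes the groups were apart by more than their spread. Per kilobase Nrp2 made up 87.1 ± 0.00805% of the pair in sgNDUFS4 and 88.8 ± 0.187% in sgControl (SD, n = 3 each).

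**Figure D4:**
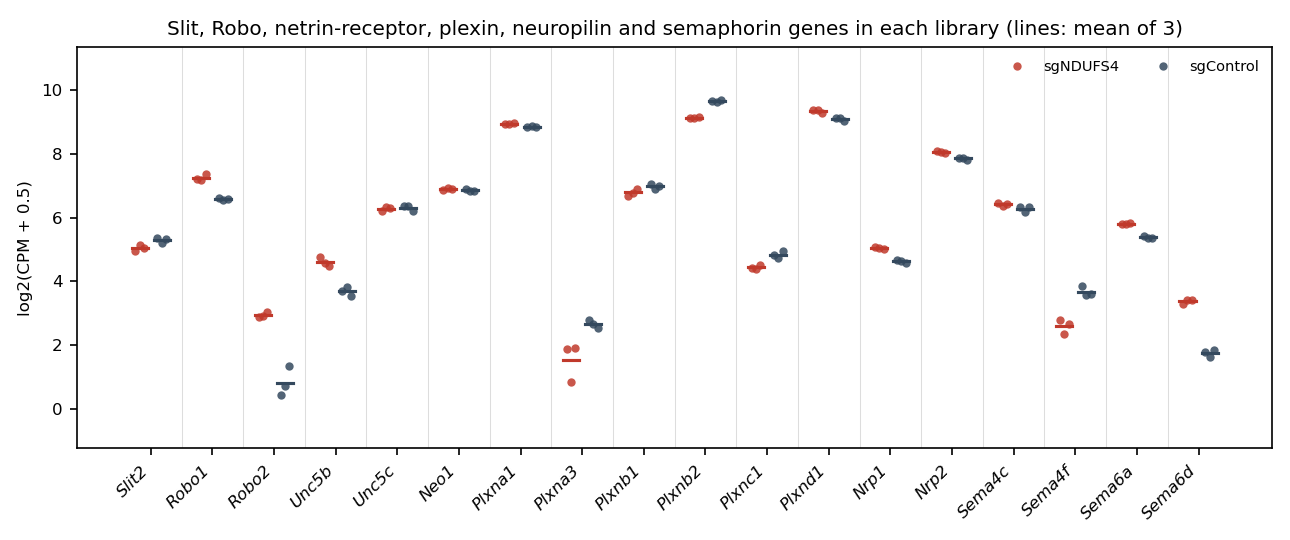
Level of Slit, Robo, netrin receptor, plexin, neuropilin and selected semaphorin genes in every library, as log2(CPM + 0.5), with sgNDUFS4 in red and sgControl in dark blue; lines are means of 3 libraries. Robo2 and Sema6d are higher in all 3 sgNDUFS4 libraries, Plxnb2 and Sema4f lower, and Unc5c and Neo1 overlap.

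Semaphorins, the ligands of plexins, form the family with the most rows, 20. Of 14 tested, 3 rose, 1 fell and 10 did not pass, where 31.8% of all genes tested rose and 20.3% fell. Sema6d (chromosome 2, 124089969 to 124667770), a transmembrane ligand of class A plexins, was at 9.22, 10.3 and 10.3 CPM in sgNDUFS4 libraries and at 2.99, 2.62 and 3.14 CPM in sgControl libraries. The groups were far apart, with a 3.41-fold difference (log2 fold change 1.61, SE 0.158, limma adjusted p = 4e-09). Sema6a, of the same class, was at 55.7, 54.8 and 56.8 CPM in sgNDUFS4 libraries and at 42.5, 40.8 and 40.9 CPM in sgControl libraries, with groups apart (log2 fold change 0.43, SE 0.0598, limma adjusted p = 1.5e-06). Sema6b, the remaining class 6 gene tested, averaged 22.0 ± 2.39 CPM in sgNDUFS4 and 22.2 ± 0.781 CPM in sgControl (SD, n = 3 each) and did not pass. Sema6c was at 0.0775 to 0.462 CPM in sgNDUFS4 and 0 to 0.448 CPM in sgControl.

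In class 4, Sema4f (chromosome 6, 82911885 to 82939769) was at 6.35, 4.60 and 5.86 CPM in sgNDUFS4 libraries and at 13.9, 11.4 and 11.6 CPM in sgControl libraries. Every sgNDUFS4 library lay below every sgControl library (log2 fold change -1.08, SE 0.144, limma adjusted p = 7e-07). Sema4c was at 87.9, 82.4 and 86.6 CPM in sgNDUFS4 libraries and at 80.2, 72.6 and 80.1 CPM in sgControl libraries. This difference of 0.14 on the log2 scale (limma adjusted p = 0.026) did not pass under TMM scaling (0.08, adjusted p = 0.19) or without sgNDUFS4 replicate 1 or 3 or sgControl replicate 2, where it was 0.12, 0.13 and 0.09. A transcript on the opposite strand overlaps 7.27% of its exon length. Sema4a, Sema4b and Sema4d did not pass, with log2 fold changes of -0.06, -0.22 and 0.19, and all had overlapping groups. Sema4b was lower under TMM scaling (-0.27, adjusted p = 0.018). Sema4g, Sema5a and Sema5b had no read.

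Class 3 semaphorins, the secreted ligands of neuropilins and plexins, gave no call in either direction among those that reached a mean of 1 CPM. Sema3b was the most abundant semaphorin per kilobase, at 24.8 ± 0.327 CPM per kb in sgNDUFS4 and 24.0 ± 1.31 CPM per kb in sgControl (SD, n = 3 each), and did not pass (log2 fold change 0.05, limma adjusted p = 0.35). Sema3f, 72.3 kb from Sema3b on chromosome 9, was at 1.63, 1.17 and 1.62 CPM in sgNDUFS4 libraries and at 1.69, 2.28 and 2.87 CPM in sgControl libraries. Its groups were apart by a narrow margin and it did not pass (log2 fold change -0.48, adjusted p = 0.11). Sema3c averaged 13.2 ± 1.64 CPM in sgNDUFS4 and 13.2 ± 1.20 CPM in sgControl (SD, n = 3 each), and Sema3e and Sema3g were at 0.20 and -0.13 on the log2 scale; none of these 3 passed. Sema3d had a mean of 0.945 CPM, just under the filter, with 46, 33 and 48 reads in sgNDUFS4 libraries and 0, 5 and 10 reads in sgControl libraries. Its groups did not overlap, and when no filter was applied it was called higher (log2 fold change 1.63, limma adjusted p = 0.00022). None of the other 7 members with reads under the filter passed in that fit. Sema3a had no read. Sema7a, a membrane-anchored ligand, averaged 2.98 ± 0.977 CPM in sgNDUFS4 and 1.96 ± 0.442 CPM in sgControl (SD, n = 3 each, limma adjusted p = 0.095).

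Known ligands and receptors can be read side by side. Sema6d rose, and its receptor Plxna1 was at 0.09 on the log2 scale. Sema6a rose, and its known receptors Plxna2 and Plxna4 had no read. Sema3e was at 0.20 and did not pass while its receptor Plxnd1 rose, and Sema4d was at 0.19 and did not pass while Plxnb1 fell. Sema7a did not pass while Plxnc1 fell. Slit2 fell while Robo1 and Robo2 rose. Efnb1 and its receptor Ephb2 both fell, and Ephb4 rose.

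The signals of these receptors pass through adaptor proteins, kinases and actin regulators. Of 88 listed co-receptors and signalling genes 64 were tested, and 23 rose and 14 fell, or 35.9% and 21.9%, against 31.8% and 20.3% of all genes tested. The median log2 fold change was 0.11. Among 16 kinases and adaptors 5 rose and 3 fell, among 13 cytoskeletal effectors 3 rose and 4 fell, and among 10 co-receptors and other ligands 4 rose and 4 fell. Chn1, whose product alpha-chimaerin acts downstream of Epha4 in mouse neurons, averaged 8.02 ± 0.911 CPM in sgNDUFS4 and 1.55 ± 0.175 CPM in sgControl (SD, n = 3 each, log2 fold change 2.05, limma adjusted p = 9.8e-10). Its relative Chn2, encoding beta-chimaerin, averaged 21.0 ± 0.541 CPM in sgNDUFS4 and 10.1 ± 0.563 CPM in sgControl (SD, n = 3 each, log2 fold change 1.02). Both chimaerins switch off the GTPase Rac1. Its gene was higher by 0.10 on the log2 scale (limma adjusted p = 0.048), a call that was lost under TMM scaling (0.04, adjusted p = 0.47). Met, a receptor tyrosine kinase that associates with class B plexins, averaged 60.8 ± 2.53 CPM in sgNDUFS4 and 26.5 ± 1.05 CPM in sgControl (SD, n = 3 each, log2 fold change 1.18). Rasa1, which binds EphB receptors, and Lrig3, a membrane protein, both rose, at 0.74 and 0.62 on the log2 scale. Rasa1 lies on chromosome 13 and was at 0.30 after regional centring.

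Among the genes of this list that fell, Enah, an actin polymerization factor used downstream of Robo and netrin receptors, had 0 reads in all 3 sgNDUFS4 libraries and 38.1, 35.5 and 32.1 CPM in sgControl libraries. With the floor set at 3 reads per library, it was at least 296-fold lower. Mical3, a member of the flavoprotein oxidase family that includes plexin effectors, averaged 98.3 ± 3.50 CPM in sgNDUFS4 and 186.1 ± 4.01 CPM in sgControl (SD, n = 3 each, log2 fold change -0.92, limma adjusted p = 1.5e-15). Farp2, an exchange factor bound by class A plexins, averaged 6.51 ± 1.34 CPM in sgNDUFS4 and 12.02 ± 1.246 CPM in sgControl (SD, n = 3 each, log2 fold change -0.85). Arhgap39, a GTPase-activating protein that binds Robo receptors in Drosophila and mouse, and the kinase Src fell by 0.56 and 0.55 on the log2 scale.

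Fold changes of the axon guidance genes were also set against those of the genes around them, since neighbours of some members, as on chromosome X, shared a shift. Regional centring kept the direction of every called gene, with 15 of the 42 higher and 13 lower, against 21.4% and 22.9% of 10909 genes centred. It ended the calls of Plxna3, Plxna1 and Efna5 (log2 0.26, adjusted p = 0.13) and added Plxnb3 (0.93, adjusted p = 0.014), Sema4b (-0.25, adjusted p = 0.031) and Sema3f (-0.63, adjusted p = 0.045), and Neo1 was at -0.12 (adjusted p = 0.029). Ephb6, Epha4, Ephb2, Sema6d and Robo2 were at -3.64, -2.44, -2.14, 1.54 and 1.90 after centring, and their neighbours had medians between -0.16 and 0.25. On chromosome 6, 6 tested genes start within the stretch that holds Ephb6 and Epha1, which are 738 kb apart: 4 of them fell, 2 did not pass and 0 rose. Over all genes tested, 20.3% fell and 31.8% rose in the main test. Beside Ephb6 and Epha1 the genes that fell were Gstk1, a glutathione transferase gene, with no read in sgNDUFS4 and 2.03 ± 0.870 CPM in sgControl (SD, n = 3), and Fam131b (log2 fold change -0.69, limma adjusted p = 5e-06). Casp2 and Zyx, in the same stretch, did not pass. This stretch was chosen after its values were seen. It is bounded by Ephb6 and Epha1, so their own falls in this count were fixed in advance. Of the 50 nearest tested neighbours of each, 30 had a fold change above 0, with a median log2 fold change of 0.06.

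**Figure D5:**
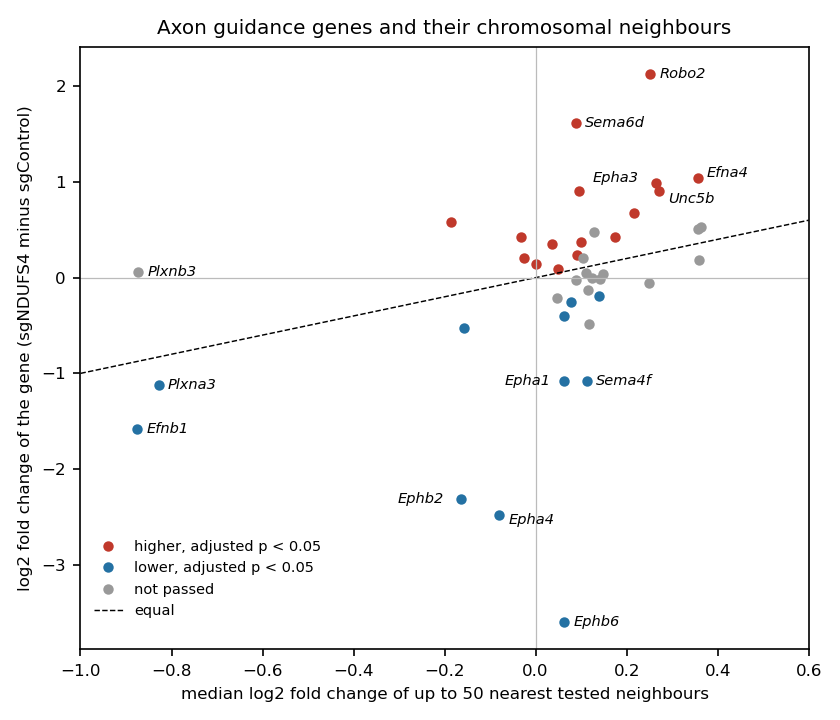
Log2 fold change of each tested axon guidance gene (vertical, sgNDUFS4 minus sgControl) against the median log2 fold change of its nearest tested neighbours on the chromosome (horizontal, up to 50 genes); the dashed line marks equal values. Efnb1, Plxna3 and Plxnb3 on chromosome X sit at neighbour medians of -0.88 to -0.83, whereas Ephb6, Epha4, Ephb2, Robo2 and Sema6d lie far from the line at neighbour medians between -0.16 and 0.25.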

How the data were processed

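Polyadenylated RNA of B16-BL6 cells was extracted with TRIzol and sequenced as paired ends without strand, per the labels' protocols. The submitters' processing notes list HISAT2 and GRCm38 with no version; the counting tool and its annotation were not given. The authors deposited CPM values, scaled to each library's reads in genes. Whole reads were recovered from the steps of the deposited CPM: 99.99% to 100% of values came out whole within 0.01.

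The main test was limma 3.58.1 (R 4.3.3), two-sided, with an intensity trend on log2(CPM + 0.5). It covered the 11063 genes whose mean over the 6 libraries was 1 CPM or more, with Benjamini-Hochberg adjustment over all of them and a threshold of 0.05. Fold changes on that scale understate low genes. The members and lists were chosen with earlier results of these data known. All members are accounted for, and the 12 tested members with the smallest adjusted p have full statistics; of the signalling list, up to 5 called genes each way with the largest change are named if their higher group averaged 5 CPM or more.

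Regional centring subtracts, in each library, the median deviation of up to 25 tested neighbours on each side (GENCODE M21, GRCm38). Replicates differed by more than counting error alone (chi-square per gene 3.55 to 5.26 within groups, 41.9 to 50.1 between groups). This measure cannot tell separate cultures from separate preparations of the same RNA. Alternatives were pseudocounts of 0.1 and 1, no filter, a filter at 5 CPM, TMM scaling, no trend, a replicate block, leaving out each library, edgeR 4.0.16 quasi-likelihood and DESeq2 1.42.0 on recovered reads (edgeR called 5583 genes), and regional centring. Symbols turned into dates (26 rows) were not named, and some marker and signalling results are not reported here.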

Additional observations from a re-analysis of the deposited data

How the results depend on the processing

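Under 16 alternatives, the numbers of axon guidance genes called higher and lower, of signalling genes called, and of all genes called stayed within 1.5 times the reported ones, and Ndufs4 kept its call. Of 27 called axon guidance genes, 21 kept direction and call in every alternative that tested them, 6 lost the call in at least 1 (Efna5, Epha2, Plxna1, Plxna3, Plxnb1 and Sema4c) and 0 changed sign. With the replicate block 16 axon guidance genes were higher and 11 lower, over all genes 5941 were called instead of 5755, and no call of a tested member changed. The replicate numbers are not shown to pair the libraries: deviations of same-numbered libraries correlated at -0.011, 0.046 and 0.113, and not every library correlated best with its own number. edgeR, DESeq2 and TMM scaling each gave 13 higher and 12 lower. Without the mean-variance trend Epha2, Plxna1, Plxnb1 and Sema4c did not pass, and without a filter Epha2 did not (limma adjusted p = 0.062) while Sema3d, under the filter otherwise, was higher (1.63). Without sgControl replicate 1 Efna3 was higher (0.75, limma adjusted p = 0.023).

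Signs changed only for genes that did not pass the main test, and the cause was not tested. Neo1 was at -0.019 with TMM scaling, -0.020 with edgeR, -0.020 with DESeq2 and -0.12 with regional centring. With regional centring it was called lower (limma adjusted p = 0.029). Sema3b was at -0.0060, -0.0076, -0.0080 and -0.077 under the same alternatives, and Sema4d was at -0.17 with regional centring. With a library left out, Plxnb3 ranged from -0.25 to 0.30, Sema3c from -0.082 to 0.091, Sema4a from -0.16 to 0.038, Sema6b from -0.082 to 0.070 and Unc5c from -0.073 to 0.011. A group left with 2 libraries shares its spread estimate with the other group. A count of 0 allows up to 0.116 to 0.149 CPM, which limits what can be said of members listed at 0.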
